A study of Mus musculus with 12 samples.

Results

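The genes described here mark the blood vessels of the brain: 34 genes of endothelial cells, which line the vessels, and of the pericytes and smooth muscle cells (mural cells) that wrap them. They were chosen by name, with earlier results of these data known. Of the 34, 32 had a probe set carrying only their own symbol, out of 18193 genes measured on the array. Where a gene had several probe sets (15 of the 32), the brightest by its mean over all arrays stood for it. The probe set that carries Ly6c1 also carries the symbol Ly6c2, and Ly6a was not analysed here. No filter on low values was used, so all 32 entered each test.

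RNA came from granule cell progenitors, the dividing neuronal precursors of the young cerebellum, separated on a Percoll density gradient from mouse cerebella at postnatal day 8 and read on Affymetrix Mouse Genome 430 2.0 arrays. SmoM2 mice (Atoh1-CreER/+; R26LSL-SmoM2-YFP) carry a constantly active form of Smoothened, the transducer of hedgehog signals, which is released after a tamoxifen-inducible Cre recombinase driven by Atoh1 removes a stop cassette. They were given 200 µg of tamoxifen per g at postnatal day 2. The 4 groups were SmoM2 hemispheres, SmoM2 vermis, wild type (WT) hemispheres and WT vermis, with 3 arrays each and 5 mice pooled per array. All mice were of a mixed strain that contains C57BL/6 and Swiss Webster. Atoh1 marks the granule cell lineage, and vascular cells lie outside it. The labels leave unstated whether WT mice carried the Cre allele or received tamoxifen, and whether hemispheres and vermis of one replicate number came from the same mice.

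Brain endothelial cells are joined by tight junctions and carry transporters and efflux pumps that together make the blood-brain barrier. Pericytes share their basement membrane and are needed to keep that barrier closed. A Percoll gradient enriches granule cell progenitors by density, and vascular cells are a minor admixture in such a preparation. The values therefore describe how much RNA of each gene a fraction held, whichever cells made it. In such bulk RNA, a change in the number of vascular cells, in a transcript per cell, or in its expression by other cells cannot be told apart.

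The brightness of the vascular probe sets varied. Of the 32 genes, 22 had a probe set above the array's median on all 12 arrays, and none lay below the lower quartile on any array. Cldn5, Bsg, Slco1c1, Pltp, Itm2a, Rgs5 and Vtn, 7 genes in all, lay above the upper quartile on all arrays. Pecam1, Tie1 and Anpep lay below the median on all 12. RMA values, the log2 scale used throughout, carry no detection call, and brightness depends on the probes, so levels are compared between samples and not between genes. The median SD of a gene within a group was 0.13 on this scale. WT hemisphere replicate 3 stood apart in its added control transcripts, with a mean dap signal of 7.92, against 8.96 to 11.11 on the other arrays, and a mean bioB signal of 6.98, against 8.41 to 9.31. WT hemisphere replicates 1 (9.63) and 2 (8.96) also had a lower dap signal than any array of the other groups (9.9 to 11.11). Their bioB signals (8.73 and 8.61) lay within the range of the other groups. The bearing of the dap shift on the vascular values was not tested. WT hemisphere replicate 3 also had the lowest 3′ minus 5′ differences in log2 signal, a sign of RNA quality, for Actb (0.46) and Gapdh (-0.24). The Actb difference was 0.90 to 1.10 in SmoM2 hemispheres and 0.46 to 0.79 in WT hemispheres, without overlap, and 0.89 to 1.07 in SmoM2 vermis and 0.88 to 0.90 in WT vermis. Its part in the vascular differences was not tested.

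In the vermis, 13 of the 32 vascular genes were lower and 1 was higher in SmoM2 than in WT fractions at a limma adjusted p under 0.05. That is 40.6% of them lower, where 9.46% of all 18193 genes were lower and 7.56% higher. Genes that fell included the transporters Slco1a4 and Slco1c1, the pericyte genes Vtn and Rgs5, the receptors Kdr and Tek and the tight junction gene Cldn5. Ramp2 rose. The median difference over the 32 genes was -0.49 on the log2 scale, beside -0.06 over all genes, and 28 of the 32 lay below 0, as did 58.3% of all genes. The SmoM2 and WT vermis arrays did not overlap, with SmoM2 lower, for 19 of the 32, where 22.5% of all genes had that pattern. For 2 of the 32, Ramp2 and Acta2, they did not overlap with SmoM2 higher, which held for 17.3% of all genes.

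In the hemispheres, 3 of the 32 were lower (Slco1a4, Vtn and Bsg) and 1 was higher (Ramp2), beside 7.18% of all genes lower and 7.62% higher. The median difference over the 32 genes was -0.01, beside -0.05 over all genes, and 16 lay below 0, as did 58.2% of all genes. Without WT hemisphere replicate 3 the median was 0.19 and 7 lay below 0. Without WT hemisphere replicate 1 the median was -0.16 and 24 lay below 0, and without WT hemisphere replicate 2 it was -0.07 and 22 lay below 0. The sign of that median therefore changed with the WT hemisphere array that was left out. Groups did not overlap for 3 genes with SmoM2 lower (all genes, 18.3%) and for 2 with SmoM2 higher, Ramp2 and Itm2a (all genes, 13.4%). In both regions the comparison used 3 SmoM2 and 3 WT arrays, and a difference is SmoM2 minus WT throughout.

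**Figure D1:**
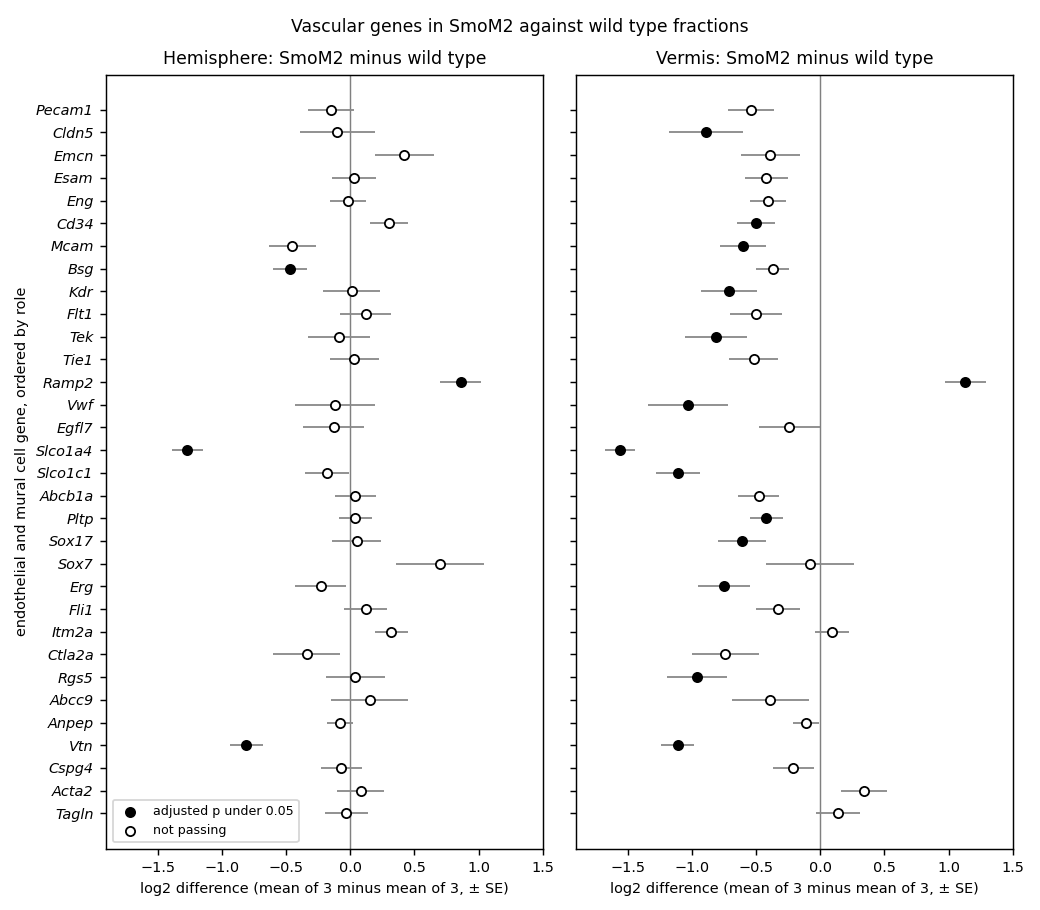
Log2 difference between SmoM2 and WT fractions (horizontal axis, mean of 3 arrays minus mean of 3 arrays, bars ± SE) for the 32 vascular genes, in the hemispheres on the left and the vermis on the right. Filled points passed a limma adjusted p of 0.05. In the vermis 28 points lie left of 0 and 13 of them are filled. In the hemispheres the points lie on both sides of 0, with Slco1a4 at the far left and Ramp2 at the far right of the filled points.

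Among the barrier transporters, Slco1a4, an organic anion transporter of brain endothelium, had the largest difference of the 32 genes in both regions. Its values were 5.10, 5.24 and 5.23 in SmoM2 hemispheres, against 6.64, 6.49 and 6.25 in WT hemispheres. In the vermis they were 4.57, 4.85 and 4.79 in SmoM2 vermis, against 6.37, 6.23 and 6.27 in WT vermis. Every SmoM2 array lay below every WT array, by at least a whole log2 unit between the nearest hemisphere arrays. The differences were -1.27 ± 0.12 (SE, limma adjusted p = 5.2e-06) in the hemispheres and -1.56 ± 0.12 (SE, limma adjusted p = 7.78e-07) in the vermis, or 2.41-fold and 2.94-fold lower. The call held in all 22 alternative fits in each region.

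Slco1c1, a thyroid hormone transporter of brain endothelium and astroglia, differed in the vermis. Its values there were 7.40, 8.09 and 8.01 in SmoM2 vermis, against 8.87, 9.05 and 8.92 in WT vermis. The groups did not overlap, and SmoM2 vermis replicate 1 was the lowest of the 6 arrays. The difference was -1.11 ± 0.17 (SE, limma adjusted p = 0.000383), or 2.17-fold lower, and it passed in all 23 alternatives. In the hemispheres the values were 7.96, 8.16 and 8.07 in SmoM2 hemispheres, against 8.10, 8.09 and 8.53 in WT hemispheres, and the difference of -0.18 (limma adjusted p = 0.491) did not pass. Pltp, which transfers phospholipids between lipoproteins, fell in the vermis by 0.42 on the log2 scale (limma adjusted p = 0.0394), with a hemisphere difference of 0.04 (limma adjusted p = 0.851). Its vermis call missed the threshold in 11 of 23 alternatives, among them median centring (adjusted p = 0.0619) and no moderation (0.0789). The drug efflux pump gene Abcb1a had differences of 0.04 (limma adjusted p = 0.901) in the hemispheres and -0.48 (limma adjusted p = 0.0548) in the vermis, neither passing. Of the 4 transporters, 3 were lower in the vermis and 1 in the hemispheres.

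Of the 5 pericyte genes, Vtn fell in both regions and Rgs5 in the vermis. Vtn encodes vitronectin, an adhesive glycoprotein that brain pericytes secrete. Its values were 7.79, 7.89 and 8.12 in SmoM2 hemispheres, against 8.65, 8.52 and 9.07 in WT hemispheres. In the vermis Vtn gave 7.72, 7.72 and 7.85 in SmoM2 vermis, against 8.90, 8.90 and 8.81 in WT vermis. SmoM2 and WT arrays were fully apart in each region. The differences were -0.81 ± 0.13 (SE, limma adjusted p = 0.00101) and -1.11 ± 0.13 (SE, limma adjusted p = 6.5e-05) in hemispheres and vermis, which is 1.75-fold and 2.15-fold lower, and both held in all 23 alternatives. The promoter windows of Slco1a4 and Vtn, the 2 genes lower in both regions with every alternative, are given first. They run from 250 bases before to 50 after the RefSeq gene start (GRCm38.p6), 5′ to 3′ on the gene's strand. They are in lower case throughout because none of the motifs searched (ETS, CAGGAAG; SOX, AACAATG; GLI, GACCACCCA; both strands) occurs in them.
Slco1a4, chr6:141856171-141856470, minus strand: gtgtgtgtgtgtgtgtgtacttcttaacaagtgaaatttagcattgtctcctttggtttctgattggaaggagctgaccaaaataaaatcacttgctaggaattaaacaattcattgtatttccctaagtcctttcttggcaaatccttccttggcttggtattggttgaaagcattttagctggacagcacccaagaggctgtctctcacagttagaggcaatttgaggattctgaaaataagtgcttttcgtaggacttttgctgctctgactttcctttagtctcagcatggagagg
Vtn, chr11:78498870-78499169, plus strand: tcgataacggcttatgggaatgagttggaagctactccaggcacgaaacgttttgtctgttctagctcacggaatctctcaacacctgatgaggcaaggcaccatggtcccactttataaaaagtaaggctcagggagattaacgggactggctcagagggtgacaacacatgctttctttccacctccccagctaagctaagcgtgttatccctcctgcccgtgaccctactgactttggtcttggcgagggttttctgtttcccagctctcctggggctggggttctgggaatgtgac

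Rgs5, a regulator of G protein signalling that marks pericytes, had 8.28, 9.02 and 9.17 in SmoM2 vermis, against 9.66, 9.75 and 9.94 in WT vermis. The vermis groups did not overlap. Rgs5 fell by 0.96 on the log2 scale with an SE of 0.23 (limma adjusted p = 0.0109), a 1.95-fold lower level, and missed the threshold in 1 of 23 alternatives, the fit without moderation (adjusted p = 0.0639). In the hemispheres Rgs5 had 9.01, 9.08 and 9.44 in SmoM2 hemispheres, against 8.89, 8.90 and 9.60 in WT hemispheres. These overlapped, WT replicate 3 being the highest array, and the difference was 0.04 (limma adjusted p = 0.916).

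Abcc9, the regulatory subunit of a potassium channel of pericytes, ranged widely within each group. Its values were 5.77, 6.52 and 6.73 in SmoM2 hemispheres, against 5.80, 5.86 and 6.92 in WT hemispheres. The vermis values were 5.71, 6.35 and 6.50 in SmoM2 vermis, against 6.41, 6.46 and 6.86 in WT vermis. The groups overlapped in both regions, with differences of 0.15 (limma adjusted p = 0.772) in the hemispheres and -0.39 (limma adjusted p = 0.383) in the vermis. The other pericyte genes had smaller differences. Anpep, a surface aminopeptidase, differed by -0.08 and -0.11, and Cspg4, the NG2 proteoglycan that oligodendrocyte precursors also carry, by -0.07 and -0.21 in hemispheres and vermis, none passing.

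The smooth muscle genes did not pass in either region. Acta2, smooth muscle actin, had 5.75, 5.14 and 5.90 in SmoM2 hemispheres, against 5.47, 5.35 and 5.74 in WT hemispheres. Its vermis values were 5.73, 5.60 and 6.09 in SmoM2 vermis, against 5.50, 5.54 and 5.37 in WT vermis. All 3 SmoM2 vermis arrays lay above the WT ones, but the difference of 0.34 (limma adjusted p = 0.207) did not pass, nor did that of 0.08 (limma adjusted p = 0.795) in the hemispheres. Tagln, the actin-binding protein transgelin, had 4.55, 4.56 and 4.72 in SmoM2 hemispheres, against 4.27, 4.78 and 4.87 in WT hemispheres. In vermis it had 4.67, 5.09 and 5.14 in SmoM2 vermis, against 4.84, 5.03 and 4.60 in WT vermis. SmoM2 and WT overlapped, and the differences were -0.03 (limma adjusted p = 0.916) and 0.14 (limma adjusted p = 0.575) in hemispheres and vermis.

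Ramp2, which pairs with the calcitonin receptor-like receptor to form the adrenomedullin receptor, was the only one of the 32 genes that passed as higher in SmoM2, and it did so in both regions. Its values were 7.93, 7.99 and 7.92 in SmoM2 hemispheres, against 6.97, 6.74 and 7.56 in WT hemispheres. In the vermis they were 8.17, 8.28 and 8.20 in SmoM2 vermis, against 7.08, 7.13 and 7.05 in WT vermis. No WT array reached the lowest SmoM2 array, and the closest, WT hemisphere replicate 3, was the highest of its group. The differences were 0.86 ± 0.16 (SE, limma adjusted p = 0.00193) in the hemispheres and 1.13 ± 0.16 (SE, limma adjusted p = 0.00019) in the vermis, 1.81-fold and 2.19-fold higher, and passed in all 23 alternatives in each region. The other 4 receptors had vermis differences below 0.

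The receptor tyrosine kinases of endothelium were lower in the vermis or did not pass. Kdr, the main VEGF receptor, had 6.07, 6.58 and 6.80 in SmoM2 vermis, against 6.94, 7.25 and 7.39 in WT vermis, and fell by 0.71 on the log2 scale, SE 0.22 (limma adjusted p = 0.0386, 1.64-fold). SmoM2 vermis replicate 1 was the lowest, and the groups did not overlap. Its hemisphere values were 6.92, 7.08 and 6.98 in SmoM2 hemispheres, against 6.60, 6.83 and 7.52 in WT hemispheres, a difference of 0.01 (limma adjusted p = 0.988). Tek, the angiopoietin receptor Tie2, had 4.63, 5.46 and 5.55 in SmoM2 vermis, against 5.95, 5.89 and 6.24 in WT vermis, again without overlap, and a difference of -0.81 ± 0.24 (SE, limma adjusted p = 0.0341), 1.76-fold lower. In the hemispheres Tek had 5.63, 6.05 and 5.81 in SmoM2 hemispheres, against 5.65, 5.66 and 6.44 in WT hemispheres, with a difference of -0.09 (limma adjusted p = 0.828); WT replicate 3 alone lay above the SmoM2 arrays.

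Flt1, the VEGF receptor that also acts as a VEGF decoy, had 5.57, 5.74 and 6.27 in SmoM2 vermis, against 6.19, 6.72 and 6.18 in WT vermis, overlapping at one array, and its difference of -0.50 (limma adjusted p = 0.103) did not pass. Hemisphere values of Flt1 were 6.15, 6.46 and 6.23 in SmoM2 hemispheres, against 5.79, 6.32 and 6.38 in WT hemispheres, overlapping, with a difference of 0.12 (limma adjusted p = 0.73). Tie1, a partner of Tek, differed by 0.03 (limma adjusted p = 0.933) in the hemispheres and -0.52 (limma adjusted p = 0.0748) in the vermis. Of the 5 receptors, 2 were lower and 1 higher in the vermis, and 1 was higher in the hemispheres.

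**Figure D2:**
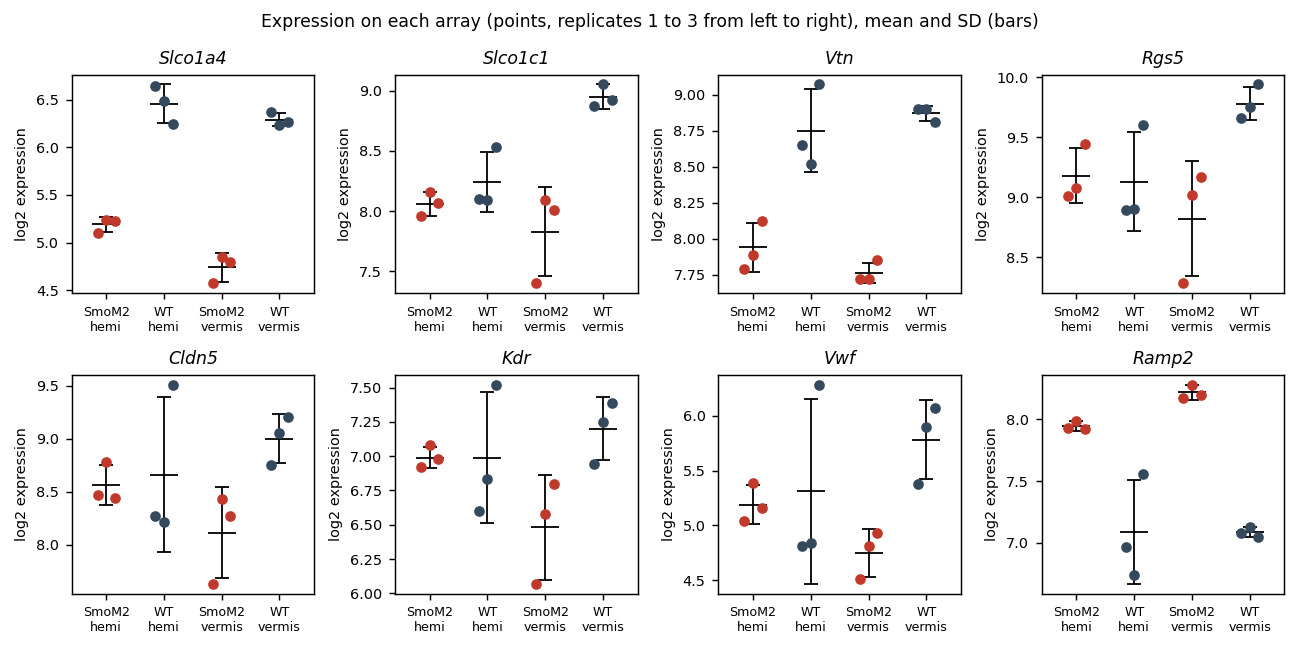
Log2 expression (vertical axis) of 8 vascular genes on each array. Points are the 3 replicates of SmoM2 (red) and WT (dark) hemispheres and vermis, with the mean and SD as bars, and each panel has its own axis. Slco1a4, Vtn and Ramp2 are apart in both regions. For Slco1c1, Rgs5, Cldn5, Kdr and Vwf the vermis groups are apart, and WT hemisphere replicate 3 (the right dark point of the hemisphere column) lies above the other WT hemisphere arrays.

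Among the surface and adhesion genes, Cldn5, the main claudin of the barrier's tight junctions, had 7.63, 8.43 and 8.27 in SmoM2 vermis, against 8.75, 9.05 and 9.21 in WT vermis. There was no overlap, and the difference was -0.89 ± 0.29 (SE, limma adjusted p = 0.0483), 1.86-fold lower. The Cldn5 call missed the threshold in 11 of 23 alternatives. Among them were median centring (adjusted p = 0.0567), trend and robust moderation (0.0536) and no moderation (0.149). In the hemispheres its values were 8.47, 8.78 and 8.44 in SmoM2 hemispheres, against 8.27, 8.21 and 9.51 in WT hemispheres. WT replicate 3 was more than a log2 unit above the other 2 WT arrays, and the difference was -0.10 (limma adjusted p = 0.837). Pecam1, the endothelial junction protein CD31, had 3.72, 4.04 and 3.85 in SmoM2 vermis, against 4.13, 4.43 and 4.66 in WT vermis, without overlap, but its difference of -0.54 (limma adjusted p = 0.056) missed the threshold. Pecam1 in the hemispheres was at 3.91, 3.94 and 4.02 in SmoM2 hemispheres, against 3.85, 3.88 and 4.60 in WT hemispheres, with a difference of -0.15 (limma adjusted p = 0.595).

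Cd34, a sialomucin of endothelial cells and blood progenitors, had 5.82, 5.96 and 5.89 in SmoM2 vermis, against 6.23, 6.39 and 6.54 in WT vermis. SmoM2 arrays lay within a narrow band below all WT arrays, and the difference was -0.50 ± 0.15 (SE, limma adjusted p = 0.0374), 1.41-fold lower. This call missed the threshold in 8 of 23 alternatives, among them median centring (adjusted p = 0.0502) and no moderation (0.0946). In the hemispheres Cd34 had 6.53, 6.57 and 6.63 in SmoM2 hemispheres, against 6.06, 6.07 and 6.71 in WT hemispheres, with SmoM2 above 2 of the 3 WT arrays. The hemisphere difference of 0.30 (limma adjusted p = 0.196) became 0.51 without WT hemisphere replicate 3 and then passed (adjusted p = 0.00875). Mcam, the adhesion protein CD146 of endothelial and mural cells, had 5.24, 5.23 and 5.51 in SmoM2 vermis, against 5.58, 6.03 and 6.18 in WT vermis, without overlap, and a difference of -0.60 ± 0.18 (SE, limma adjusted p = 0.0333), 1.52-fold lower. Its hemisphere values were 5.33, 5.75 and 5.49 in SmoM2 hemispheres, against 5.89, 5.72 and 6.31 in WT hemispheres, with a difference of -0.45 (limma adjusted p = 0.104).

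Bsg, basigin, which brings lactate transporters to the membrane and is made by many cell types besides endothelium, had 9.59, 9.70 and 9.65 in SmoM2 hemispheres, against 9.98, 9.90 and 10.47 in WT hemispheres. All SmoM2 hemisphere arrays lay below the WT ones, and the difference was -0.47 ± 0.13 (SE, limma adjusted p = 0.0294), 1.38-fold lower. This call was lost without SmoM2 hemisphere replicate 1 (adjusted p = 0.0974), replicate 2 (0.0553) or replicate 3 (0.0785), and without WT hemisphere replicate 3, where the difference was -0.29 (0.0853). No moderation (0.0678) and a fit of only the groups compared (0.0891) lost it too, and it missed the threshold in 7 of 23 alternatives. In the vermis Bsg had 9.60, 9.75 and 9.80 in SmoM2 vermis, against 10.08, 10.13 and 10.06 in WT vermis, also apart, with a difference of -0.37 (limma adjusted p = 0.0659) that did not pass. The sialomucin Emcn differed by 0.42 in the hemispheres and -0.39 in the vermis, the adhesion molecule Esam by 0.03 and -0.42, and the TGF-beta co-receptor Eng by -0.02 and -0.41, none passing. All 8 surface and adhesion genes had vermis differences below 0, and 3 of the 8 passed there.

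Of the secreted proteins, Vwf, the von Willebrand clotting factor stored in endothelial cells, had 4.51, 4.81 and 4.93 in SmoM2 vermis, against 5.38, 5.90 and 6.07 in WT vermis. The groups were apart, with a difference of -1.03 ± 0.31 (SE, limma adjusted p = 0.0338), 2.05-fold lower. In the hemispheres Vwf had 5.04, 5.39 and 5.16 in SmoM2 hemispheres, against 4.81, 4.84 and 6.28 in WT hemispheres. WT replicate 3 was far above the rest, the other 2 WT arrays lay below all SmoM2 arrays, and the difference was -0.12 (limma adjusted p = 0.823). Egfl7, an angiogenic factor of endothelium, differed by -0.13 and -0.24 in hemispheres and vermis and did not pass. The remaining endothelial genes, Itm2a (differences 0.32 and 0.09), which encodes a membrane protein, and Ctla2a (-0.34 and -0.74), a cysteine protease inhibitor, did not pass in hemispheres or vermis.

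Among the endothelial transcription factors, Erg, an ETS factor, had 5.03, 5.55 and 5.26 in SmoM2 vermis, against 5.77, 6.21 and 6.13 in WT vermis. The vermis groups were apart, and the difference was -0.75 ± 0.20 (SE, limma adjusted p = 0.0195), 1.69-fold lower. With the mean of both its probe sets the difference was -0.40 and did not pass (adjusted p = 0.0776). In the hemispheres Erg had 5.39, 5.69 and 5.40 in SmoM2 hemispheres, against 5.52, 5.41 and 6.23 in WT hemispheres, overlapping, with a difference of -0.23 (limma adjusted p = 0.463). Sox17, an SRY-related factor of arterial endothelium, fell in the vermis by 0.61 on the log2 scale (limma adjusted p = 0.0467) and differed by 0.05 (limma adjusted p = 0.879) in the hemispheres. The vermis call missed the threshold in 14 of 22 alternatives, among them the mean of all probe sets (-0.44, adjusted p = 0.0656), renewed quantile normalization (0.0641) and median centring (0.0561). Fli1, another ETS factor, differed by 0.12 and -0.33, and Sox7 by 0.70 and -0.08 in hemispheres and vermis, neither passing. Thus 2 of the 4 factors were lower in the vermis and none passed in the hemispheres.

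Since ETS and SOX factors are themselves members, the promoter windows of Cd34 and Erg are given to show where the searched letters lie. Capitals mark CAGGAAG, the ETS letters, read here on the opposite strand as CTTCCTG, and AACAATG, the SOX letters, read as CATTGTT. RefSeq (GRCm38.p6) gave windows for 24 of the 34 genes, 30 windows in all. The Erg window is the one of its 3 starts that holds either motif.
Cd34, chr1:194938571-194938870, plus strand: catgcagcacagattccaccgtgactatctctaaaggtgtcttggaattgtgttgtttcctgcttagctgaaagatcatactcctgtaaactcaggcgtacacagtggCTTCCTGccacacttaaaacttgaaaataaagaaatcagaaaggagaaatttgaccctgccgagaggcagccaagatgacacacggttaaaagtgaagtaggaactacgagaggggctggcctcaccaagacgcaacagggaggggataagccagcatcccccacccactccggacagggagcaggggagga
Erg, chr16:95459299-95459598, minus strand: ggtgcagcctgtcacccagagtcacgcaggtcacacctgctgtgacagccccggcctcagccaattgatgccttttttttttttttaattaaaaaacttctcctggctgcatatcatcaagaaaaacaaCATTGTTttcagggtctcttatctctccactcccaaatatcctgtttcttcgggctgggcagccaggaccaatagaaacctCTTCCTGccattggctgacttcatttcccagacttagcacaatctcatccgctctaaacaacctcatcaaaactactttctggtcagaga
The ETS letters lie from -142 to -136 in Cd34 and from -40 to -34 in Erg, counted from the gene's start, and the SOX letters from -121 to -115 in Erg, with no overlap between them. ETS letters occurred in 8 of the 30 windows (from 6 genes, Cd34, Ctla2a, Egfl7, Emcn, Erg and Itm2a) and in 13.3% of all 32851 windows of the table. SOX letters occurred in 1 of the 30, of Erg, and in 3.78% of all windows, and the GLI letters of the hedgehog pathway in none of the 30 and in 0.253% of all windows. A match is a description of these letters, not a bound site.

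The vascular genes also varied together between replicates of one group. On WT hemisphere replicate 3, 29 of the 32 had their group's highest value, where 36.6% of all genes did, and their median deviation from the group mean was 0.39, beside 0.01 for all genes. On SmoM2 vermis replicate 1, 28 of the 32 had the group's lowest value, where 33.7% of all genes did, with a median deviation of -0.19. Replicate 1 also held the lowest value for 24 of the 32 in SmoM2 hemispheres, 20 in WT hemispheres and 21 in WT vermis, where 40.8%, 33.2% and 36.7% of all genes were lowest. Signals were also summed over genes as unlogged values, so that the brightest probe sets weigh most. The summed signal of the 32 genes, on the log2 scale, was 12.61 to 12.76 in SmoM2 hemispheres and 12.55 to 13.09 in WT hemispheres. It was 12.33 to 12.68 in SmoM2 vermis and 12.82 to 13.03 in WT vermis, so the sums overlapped in the hemispheres and not in the vermis. The 55 other vascular genes described further on summed the other way, to 13.65 to 13.69 in SmoM2 and 13.20 to 13.52 in WT hemispheres. Their vermis sums were 13.50 to 13.65 in SmoM2 and 13.40 to 13.49 in WT, so SmoM2 was higher without overlap in both regions. Gene by gene, 38 of the 55 lay below 0 in the vermis and 25 in the hemispheres. Of all genes, 58.3% and 58.2% did.

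**Figure D3:**
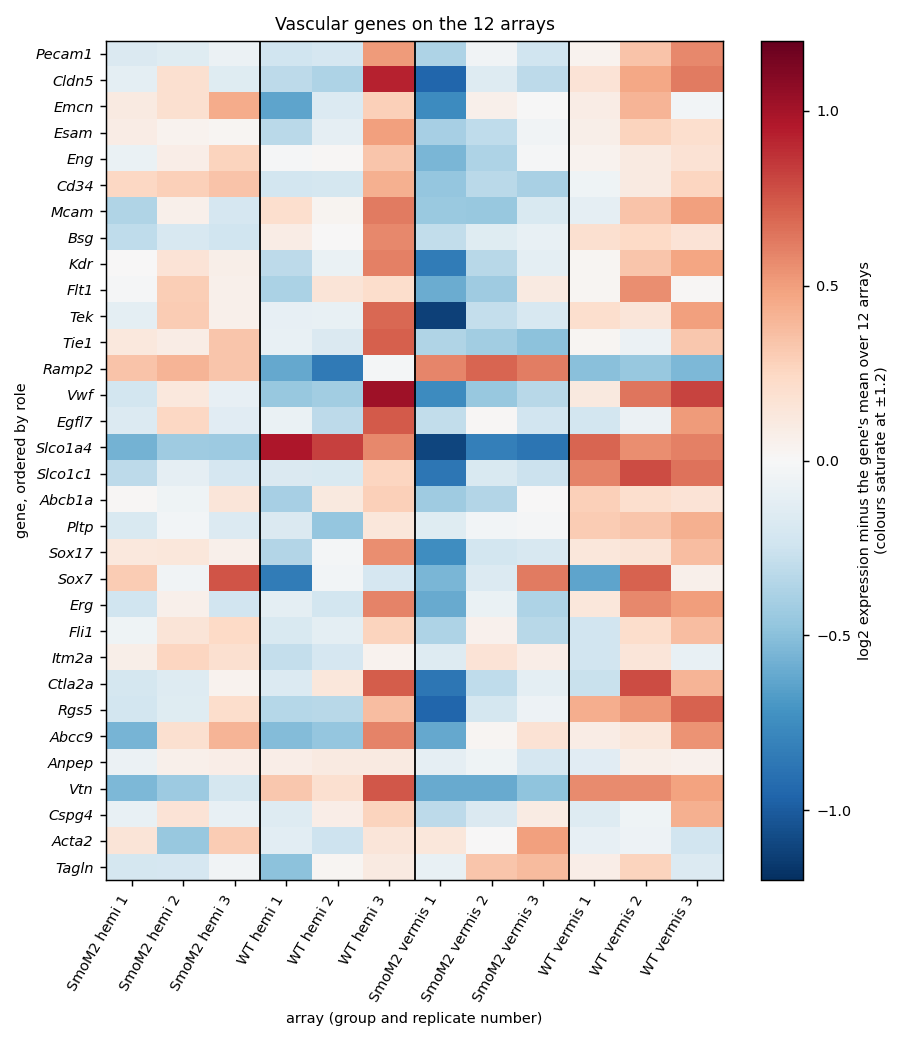
Each vascular gene (vertical axis) on each of the 12 arrays (horizontal axis, by group and replicate number), coloured by its log2 expression minus its own mean over the 12 arrays. Colours saturate at ±1.2. The column of WT hemisphere replicate 3 is mostly red (high) and that of SmoM2 vermis replicate 1 mostly blue (low), and Ramp2 is higher in the SmoM2 columns where Slco1a4 and Vtn are lower.

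The vermis count of 13 lower genes depended on single arrays for 9 of its genes. Without SmoM2 vermis replicate 1 it was 4, and the same was found without WT vermis replicate 2 and without WT vermis replicate 3. Each time Cd34, Cldn5, Erg, Kdr, Mcam, Pltp, Sox17, Tek and Vwf missed the threshold, with adjusted p up to 0.194, 0.122 and 0.146 in that order, and Slco1a4, Slco1c1, Vtn and Rgs5 passed. Without SmoM2 vermis replicate 2 it was 6, Erg and Tek passing besides those 4, and the adjusted p of the other 7 reached 0.111. Without SmoM2 vermis replicate 3, Cd34, Cldn5, Erg, Pltp, Sox17 and Vwf missed it (up to 0.081) and Abcb1a, Eng and Flt1 passed. Without WT vermis replicate 1, Pltp, Sox17 and Tek missed it (up to 0.0606) and Ctla2a and Pecam1 passed.

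Hemisphere arrays enter the vermis test through the shared estimate of spread. Without SmoM2 hemisphere replicate 3 the vermis count was 8, with Cd34, Cldn5, Kdr, Pltp and Sox17 at adjusted p 0.051 to 0.0616. Without SmoM2 hemisphere replicate 1 (count 9) or 2 (count 10), Cldn5, Kdr and Sox17 missed the threshold, and Pltp also for replicate 1, at no more than 0.0625. Without WT hemisphere replicate 3 the count was 20, with Abcb1a, Bsg, Ctla2a, Eng, Esam, Pecam1 and Tie1 passing too. Without WT hemisphere replicate 1 it was 17, and without replicate 2 it was 13, Sox17 (0.055) giving way to Bsg (0.0499). The vermis median over the 32 genes stayed between -0.54 and -0.38 in all 12 of these fits, and 27 or 28 genes lay below 0. With WT hemisphere replicate 3 and SmoM2 vermis replicate 1 both left out, an alternative added after the values were seen, 12 genes were lower in the vermis and the hemisphere median was 0.19.

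**Figure D4:**
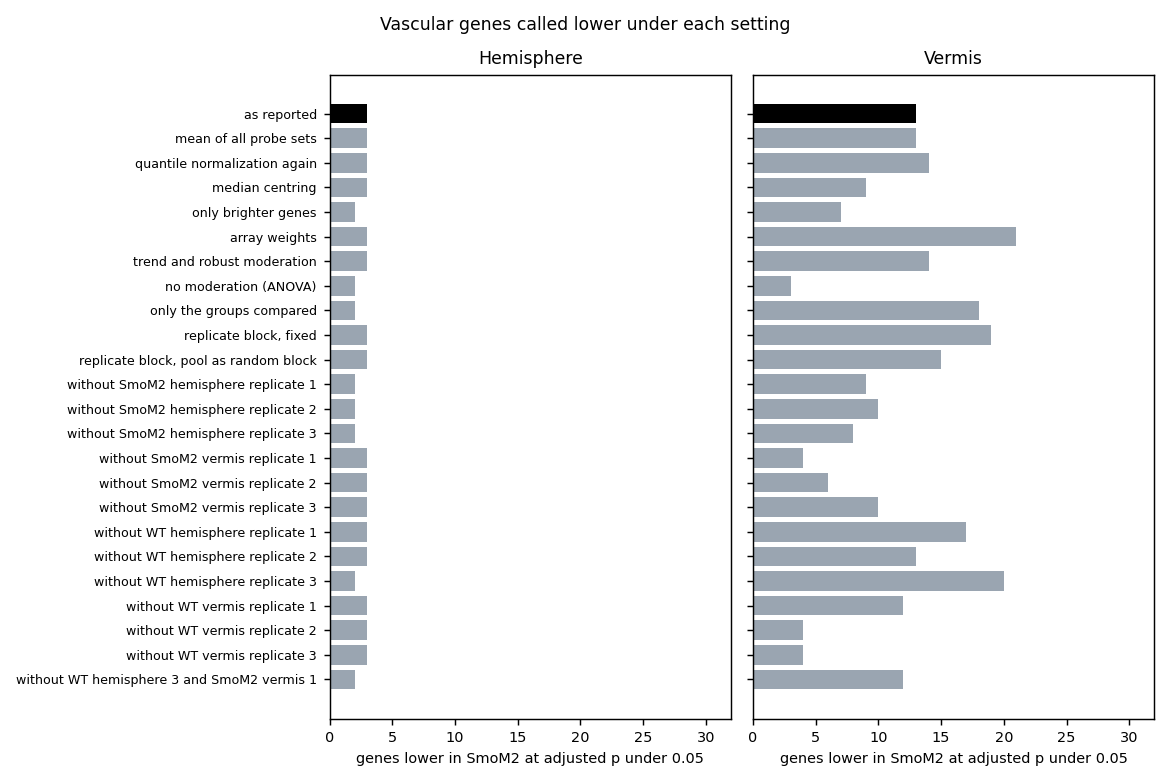
Number of the 32 vascular genes lower in SmoM2 at an adjusted p under 0.05 (horizontal axis, from 0 to all 32) in the hemispheres and the vermis, for the fit as reported (black) and each alternative (grey). The hemisphere count stays at 2 or 3. The vermis count is 13 as reported, runs from 4 to 20 when one array is left out, and is 3 without moderation and 21 with array weights.

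The study set the lateral cerebellum (hemispheres) beside the medial vermis, so the regions were also compared within each genotype. No vascular gene passed between hemispheres and vermis in SmoM2 or in WT fractions, where 0.0605% and 0.187% of all genes did. Without a block for the pool, limma gave an unadjusted p under 0.05 for 7 of the 32 in SmoM2 and 3 in WT. Of all genes, 3.63% and 6.32% had one. In SmoM2 the median hemisphere minus vermis difference over the 32 was 0.29 and 27 lay above 0. In WT it was -0.14 and 23 lay below 0. Over all genes it was 0.01 in SmoM2, with 52.0% above 0, and 50.8% lay below 0 in WT. The SmoM2 median was 0.15 without SmoM2 vermis replicate 1. The WT median was -0.32 without WT hemisphere replicate 3, with 30 of the 32 below 0, and without WT hemisphere replicate 1 there were 16 below 0.

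Hemisphere and vermis arrays of the same genotype and number deviated together, and a random block for the pool changed 3 calls between the regions. With the block, 0.214% of all genes passed in SmoM2 and 1.09% in WT. Cd34 had 6.53, 6.57 and 6.63 in SmoM2 hemispheres, against 5.82, 5.96 and 5.89 in SmoM2 vermis, without overlap. The difference of 0.69 had an adjusted p of 0.246 without the block and 0.027 with it. Slco1c1 had 8.10, 8.09 and 8.53 in WT hemispheres, against 8.87, 9.05 and 8.92 in WT vermis, again apart. The difference of -0.71 had an adjusted p of 0.159 without the block and 0.0239 with it. Pltp had 9.15, 8.86 and 9.46 in WT hemispheres, against 9.63, 9.66 and 9.75 in WT vermis, also apart, and its difference of -0.52 had 0.174 without and 0.0293 with the block. Of all genes, 5.64% were apart with hemispheres higher in SmoM2 and 4.69% with hemispheres lower in WT. Cd34 thus passed as higher in SmoM2 hemispheres, and Slco1c1 and Pltp as lower in WT hemispheres, with the random block and not in the same fit without it. With a fixed replicate block the count was 0 of the 32 in either genotype. Among fits without a block, 1 of the 32 passed in SmoM2 with array weights, with only the groups compared and without WT hemisphere replicate 3, and 1 in WT without that array.

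Whether the SmoM2 difference itself depended on the region was tested as an interaction, the hemisphere difference minus the vermis difference. None of the 32 genes passed by limma, and none of all 18193 did (0.0%). The adjusted p was 1 for all 32, and none of the 32 passed with the pool as a random block either. Without the block, an unadjusted p under 0.05 was found for 9 of the 32, beside 564 of 18193 genes, or 3.1%. More of the 32 had one with the random block, a fit for which the share of all genes is not reported here. The median interaction over the 32 was 0.46, beside 0.01 over all genes, and 28 lay above 0, as did 52.3% of all genes. Leaving out one array moved that median between 0.36 and 0.65. The interaction of Rgs5 was 1.00 ± 0.32, that of Slco1c1 0.94 ± 0.24 (unadjusted p = 0.00137) and that of Cd34 0.79 ± 0.21 (unadjusted p = 0.00228; SE throughout). With the random block their SEs were 0.24, 0.19 and 0.16, in that order. The unadjusted limma p were then 0.00103, 0.000217 and 0.000258, and the adjusted p 0.401, 0.313 and 0.313. A difference that passed in the vermis alone was therefore not shown to differ from the hemispheres for any gene.

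A list of 55 other vascular genes (further endothelial, barrier, angiogenic and mural genes, and basement membrane), all measured, was set beside the 32. In the hemispheres 13 of the 55 were higher and 1 lower (23.6% and 1.82%), beside 7.62% and 7.18% of all genes, with a median difference of 0.07, beside -0.05 over all genes. In the vermis 9 were higher and 9 lower (16.4% each), beside 7.56% and 9.46% of all genes, with a median of -0.22, beside -0.06. Sox18, an endothelial relative of Sox17, had the largest differences, 2.65 ± 0.20 (SE, limma adjusted p = 6.65e-07) in the hemispheres and 2.33 ± 0.20 (SE, limma adjusted p = 2.39e-06) in the vermis. Cav1, the caveolar coat protein of endothelium and other cells, was higher by 1.08 (limma adjusted p = 2.28e-05) and 1.12 (limma adjusted p = 1.66e-05) in hemispheres and vermis. Both calls held in all alternatives run for them. Slc7a5, the large neutral amino acid transporter, was higher by 0.94 (limma adjusted p = 0.00899) and 0.86 (limma adjusted p = 0.014) in hemispheres and vermis. The vermis call was lost without WT vermis replicate 2 (adjusted p = 0.0509), and both were lost in the fit without moderation (adjusted p = 0.058 in hemispheres and 0.0694 in vermis).

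Tspan12, a co-receptor of the Norrin signal that builds the barrier, was higher by 0.58 (limma adjusted p = 0.00547) in the hemispheres and 0.80 (limma adjusted p = 0.000437) in the vermis, in all 23 alternatives each. Col4a1, a basement membrane collagen, was higher in the hemispheres by 0.88 (limma adjusted p = 0.0234). The Col4a1 call was lost without SmoM2 hemisphere replicate 2 (adjusted p = 0.0675) or 3 (0.0763) or WT hemisphere replicate 2 (0.0961). Lower in the vermis were Ptprb, the endothelial phosphatase that acts on Tek, at a difference of -1.01 (limma adjusted p = 0.000623), and Mfsd2a, the barrier's carrier of docosahexaenoic acid, at -0.74 (limma adjusted p = 0.00618), each in all 23 alternatives. Angpt1, the ligand of Tek, was lower, at -0.97 (limma adjusted p = 0.0161), a call lost without SmoM2 vermis replicate 2 (0.0599) or 3 (0.0521) or WT vermis replicate 2 (0.0741). Higd1b, a pericyte gene, was lower, at -0.76 (limma adjusted p = 0.0322), lost without SmoM2 vermis replicate 1 (0.129) or 3 (0.0909) or WT vermis replicate 2 (0.0865) or 3 (0.108). Slc16a1, a lactate transporter that basigin escorts, was lower in the vermis, at -0.58 (limma adjusted p = 0.000702), in all 23 alternatives. It was also the 1 gene of the 55 lower in the hemispheres, at -0.36 (limma adjusted p = 0.0189), a call lost without SmoM2 hemisphere replicate 1 (0.0696) or 2 (0.0528), with the mean of all its probe sets (0.251) or with only the groups compared in the fit (0.0652). The Col4a1 call was also lost with the mean of all probe sets (0.0516), with only the groups compared (0.0573) and without moderation (0.0995), and without moderation the Angpt1 (0.0801) and Higd1b (0.11) calls were lost too.

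Markers of other cells that a Percoll fraction can carry along also differed between the genotypes. Of 8 microglia and macrophage markers, 5 were lower in SmoM2 hemispheres and 6 in SmoM2 vermis. Beside these and the counts that follow, 7.18% of all genes were lower and 7.62% higher in the hemispheres, and 9.46% lower and 7.56% higher in the vermis. Their summed log2 signal was 8.56 to 9.05 in SmoM2 hemispheres and 9.67 to 9.90 in WT hemispheres, and 8.72 to 9.25 in SmoM2 vermis and 9.79 to 9.89 in WT vermis. All 4 myelin genes measured were lower in SmoM2 in both regions, with sums of 8.02 to 8.74 and 9.77 to 9.87 in SmoM2 and WT hemispheres, and 8.60 to 9.08 and 10.34 to 10.96 in SmoM2 and WT vermis. Astroglial markers were lower for 2 of 5 in each region, and fibroblast markers higher for 2 and lower for 3 of 7 in the hemispheres and higher for 1 and lower for 2 in the vermis. The 7 granule cell lineage markers were Atoh1, Zic1, Zic2, Barhl1, Pax6, Neurod1 and Cntn2. Of these, 1 was higher and 4 lower in SmoM2 hemispheres, and 1 was higher and 3 lower in SmoM2 vermis. Of 5 oligodendrocyte precursor markers, 2 were higher and 2 lower in each region. Of 3 red blood cell markers 1 was lower, in SmoM2 vermis, and of 4 choroid plexus markers 1 was higher in each region and 1 lower in SmoM2 hemispheres. The summed choroid plexus signal was 8.11 to 8.36 in SmoM2 hemispheres and 6.47 to 11.88 in WT hemispheres, the highest being WT hemisphere replicate 1. Astroglial sums were 11.61 to 12.13 in SmoM2 hemispheres and 12.32 to 12.65 in WT hemispheres, and 11.78 to 12.15 in SmoM2 vermis and 12.29 to 12.50 in WT vermis. Granule cell lineage sums were 13.79 to 13.90 in SmoM2 hemispheres and 14.24 to 14.45 in WT hemispheres. In the vermis they were 13.86 to 13.93 in SmoM2 and 14.29 to 14.47 in WT. The sums of the microglial, myelin, astroglial and granule cell lineage markers did not overlap between genotypes in either region, with SmoM2 lower. The oligodendrocyte precursor sum was higher in SmoM2 hemispheres (10.66 to 10.94) than in WT hemispheres (10.47 to 10.61). The red blood cell sum was lower there, at 5.47 to 5.50 in SmoM2 and 5.72 to 6.02 in WT. Both sums overlapped in the vermis, and the fibroblast and choroid plexus sums overlapped in both regions. The sum of the 32 vascular genes did overlap in the hemispheres. The part of these other cells in the vascular differences was not tested.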

How the data were processed

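The deposited table holds log2 expression values per probe set for 12 arrays. The authors used Partek and RMA (background correction, quantile normalization and probe summary), per the submitters' processing notes, which name no versions. No raw arrays were used here.

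Of 45101 probe sets, 64 controls were set aside, 34945 carried 1 gene symbol, 932 several and 9211 none in the platform annotation, and updating through Entrez gene identifiers changed 0 symbols. The brightest probe set stood for each of 18193 genes. Groups came from the sample titles. limma 3.58.1 (R 4.3.3) fitted a mean per group to all 12 arrays (8 residual degrees of freedom) and tested 5 contrasts, two-sided, with Benjamini-Hochberg adjustment over all genes and a threshold of 0.05. The same code was tested on simulated data. Folds are 2 to the power of the log2 difference. With 3 arrays per group, the number of arrays limits the precision. Each array is a pool of 5 mice, and the labels do not say how the pools were drawn, so p-values measure the spread between these pools.

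Hemisphere and vermis arrays with the same number correlated in their deviations from the group means, at 0.53, 0.34 and 0.51 in WT and 0.14, 0.27 and 0.17 in SmoM2, so the numbers were taken to pair them within a genotype. Blocked values stand beside the adjusted calls between regions that they change. The counts at an unadjusted p are from the fit without a block.

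Named in full are the members passing in any contrast (at most 12 with the smallest adjusted p) and the defining markers Pecam1, Cldn5, Kdr, Flt1, Rgs5, Abcc9, Vtn, Acta2 and Tagln. Of the 55 other vascular genes, the 4 largest passing differences each way per SmoM2 contrast are named. The members and all lists, Vtn's and Slco1a4's promoters included, were chosen with earlier results of these data known. The lists of other cell types are markers of the granule cell lineage, microglia and macrophages, oligodendrocyte precursors, myelin, fibroblasts, red blood cells, astroglia and choroid plexus.

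Alternatives were the mean of all probe sets, renewed quantile normalization, median centring, only genes above the median brightness, array weights, trend and robust moderation, no moderation (the ANOVA of the design text), only the groups compared, replicate blocks, and each array left out. Some listed markers of other cell types are not reported here. Figures were drawn with matplotlib 3.10.9 in Python 3.11.15.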

Additional observations from a re-analysis of the deposited data

How the results depend on the processing

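Slco1a4, Vtn and Ramp2 in both regions and Slco1c1 in the vermis kept their direction and their call in every alternative run, and none of the 32 genes that passed as reported changed sign. In the hemispheres, 2 genes were higher with trend and robust moderation or a fixed replicate block (Itm2a joining Ramp2), and 3 without both WT hemisphere replicate 3 and SmoM2 vermis replicate 1 (Ramp2, Cd34 at adjusted p = 0.014 and Emcn at 0.03). In the vermis, 14 genes passed as reported and 13 of them were lower. These counts became 8 and 7 with only brighter genes (17 of the 32 tested), 22 and 21 with array weights, and 4 and 3 with no moderation. The cause was not tested, apart from the fewer genes that the brightness filter left. The array weights were 0.46, 1.02 and 0.45 for WT hemisphere replicates 1, 2 and 3, and 0.77 to 2.04 for arrays of the other groups. Median centring gave 9 lower, with Cldn5, Cd34, Pltp and Sox17 missing the threshold. Between regions, the random pool block gave 2 passing in WT and 1 in SmoM2, array weights and a fit of only the groups compared gave 1 in SmoM2, and the joint exclusion gave 1 in WT. Leaving out one array gave 3 to 4 passing in the hemispheres (2 to 3 lower, 1 to 2 higher), 5 to 21 in the vermis (4 to 20 lower, 1 to 1 higher), 0 to 1 between regions in WT and likewise 0 to 1 in SmoM2, and 0 to 0 for the interaction. Over all genes, deviations of same-numbered SmoM2 and WT arrays correlated at -0.22 to 0.28, so numbers were not taken to pair the genotypes, though replicate 1 was lowest for most of the 32 genes in all 4 groups. A fixed replicate block gave 19 genes lower in the vermis and the random block 15, with 3 lower in the hemispheres under both. Over all genes, 2694 passed in the hemispheres and 3096 in the vermis. The hemisphere count was 1753 with only the groups compared, 1633 without SmoM2 hemisphere replicate 1, 1704 without replicate 3 and 4277 without WT hemisphere replicate 1. The vermis count was 1795 without SmoM2 vermis replicate 1, 1756 without replicate 2, and 1873 and 1920 without WT vermis replicate 2 and 3. RMA values carry no detection call, so signal over background could not be weighed.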

Other observations

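Several of the 32 genes had more than 1 probe set, and these did not always move alike. Adjusted p-values here are from limma over all 34945 probe sets with 1 symbol. A dimmer Abcc9 probe set had a vermis difference (SmoM2 minus WT) of -0.67 (adjusted p = 0.0125) and a dimmer Flt1 probe set one of -0.75 (adjusted p = 0.0166), while the brightest sets of these genes did not pass. The 4 probe sets of Rgs5 had vermis differences of -0.96, -0.71, -0.82 and -0.64 (adjusted p = 0.014, 0.075, 0.0307 and 0.0753), all in one direction. The dimmer Vtn probe set gave -0.85 in the hemispheres (adjusted p = 0.000734) and -0.92 in the vermis (adjusted p = 0.00036), close to the brightest set. For Erg the dimmer probe set had a vermis difference of -0.05 (adjusted p = 0.853), unlike the brightest set, which fell. For Sox17 the dimmer set was higher in SmoM2 hemispheres by 0.56 (adjusted p = 0.03) and had a vermis difference of -0.27.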
